A study of Mus musculus with 6 samples.

Results

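High mobility group (HMG) proteins are small, abundant non-histone proteins that bind chromatin and change its structure. The genes described here are Hmga1 and Hmga2, Hmgb1, Hmgb2 and Hmgb3, and Hmgn1, Hmgn2, Hmgn3 and Hmgn5. They were chosen by name, and all 9 had a row among the 23079 genes of the deposited count table and were among the 16766 genes that passed the filter on low counts. The libraries came from midbrain dopaminergic neurons of C57BL/6 mice carrying the Dat bacTRAP transgene, which tags ribosomes in cells that use the dopamine transporter promoter. Control libraries had received adeno-associated virus (AAV1) with a scrambled short hairpin and knockdown libraries the same virus with a hairpin against Satb1, both with EGFP, although the titles call the treatment siRNA. There were 3 libraries in each of the 2 groups. The labels name 3 mice aged 4 months and a dissection of the substantia nigra pars compacta and ventral tegmental area from slices of 1 mm. They do not tie libraries to mice and name no ribosome capture step, so a p-value here reflects library spread, which may be technical.

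HMG proteins fall into 3 families that differ in how they touch chromatin. HMGA proteins bind the minor groove of AT-rich DNA through short AT-hook motifs, HMGB proteins bend DNA with paired HMG boxes and carry an acidic tail, and HMGN proteins bind the nucleosome core itself and compete with linker histones. HMGB1 is also released by damaged or senescent cells and acts as an alarm signal, and loss of HMGB1 and HMGB2 from the nucleus and gain of HMGA proteins are known features of senescence in cultured cells. Satb1, the target of the hairpin, encodes another organiser that binds AT-rich DNA.

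The coding stretches below show what the HMGN genes have in common, since members of that family changed in opposite directions. They encode the longest run of amino acids shared by the 4 translated HMGN genes, 8 residues long, which lies in the nucleosome-binding domain. Capitals mark the 11 of 24 bases that are not the same in all 4 genes. The sequences are from GENCODE transcripts on GRCm38, 5′ to 3′ on the coding strand.
Hmgn1 (chr16:96127311-96127334, minus strand): CgCCgCtcCgcGAgGCtgtcGgcC
Hmgn2 (chr4:133966766-133966789, minus strand): AgAAgAtcTgcGAgGTtgtcTgcT
Hmgn3 (chr9:83114773-83114796, minus strand): AgACgGtcGgcCAgGTtgtcCgcG
Hmgn5 (chrX:109010857-109010880, minus strand): AgAAgAtcAgcCCgACtgtcTgcT
Each stretch lies within 1 coding exon. Between pairs of genes, from 14 (Hmgn1 and Hmgn5) to 19 (Hmgn2 and Hmgn5) of the 24 bases were identical. The reference transcripts encode 96, 90 and 99 residues for Hmgn1, Hmgn2 and Hmgn3 but 406 for Hmgn5, whose protein has a long acidic tail.

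The HMGB genes share a longer run of 15 residues in the first HMG box, shown for comparison because Hmgb2 alone of the 3 passed the test. Capitals again mark bases that differ among the genes, 11 of 45.
Hmgb1 (chr5:149050648-149050692, minus strand): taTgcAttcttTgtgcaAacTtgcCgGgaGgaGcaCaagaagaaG
Hmgb2 (chr8:57512644-57512688, plus strand): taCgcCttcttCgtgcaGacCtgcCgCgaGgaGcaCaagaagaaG
Hmgb3 (chrX:71558103-71558147, plus strand): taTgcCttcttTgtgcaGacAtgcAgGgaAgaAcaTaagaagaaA
Hmgb1 and Hmgb2 matched at 39 of the 45 bases, Hmgb1 and Hmgb3 at 37, and Hmgb2 and Hmgb3 at 36.

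Promoter sequences from RefSeq (GRCm38.p6) were found for 8 of the 9 genes. The 250 bases before the start are printed for the HMGB genes and for the HMGN genes Hmgn1 and Hmgn5, which moved in opposite directions. Capitals mark the CCAAT box, searched as CCAAT on both strands.
Hmgb1 (chr5:149053058-149053307, minus strand): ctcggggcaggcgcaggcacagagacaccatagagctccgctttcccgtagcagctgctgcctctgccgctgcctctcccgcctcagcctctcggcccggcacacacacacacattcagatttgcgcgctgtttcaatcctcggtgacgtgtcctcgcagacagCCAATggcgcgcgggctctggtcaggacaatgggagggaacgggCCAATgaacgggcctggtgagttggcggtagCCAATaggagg
Hmgb2 (chr8:57511593-57511842, plus strand): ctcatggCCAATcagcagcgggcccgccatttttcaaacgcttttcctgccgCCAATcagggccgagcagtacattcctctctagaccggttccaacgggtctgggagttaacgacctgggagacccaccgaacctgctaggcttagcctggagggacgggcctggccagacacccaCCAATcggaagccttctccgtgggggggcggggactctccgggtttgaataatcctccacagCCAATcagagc
Hmgb3 (chrX:71555667-71555916, plus strand): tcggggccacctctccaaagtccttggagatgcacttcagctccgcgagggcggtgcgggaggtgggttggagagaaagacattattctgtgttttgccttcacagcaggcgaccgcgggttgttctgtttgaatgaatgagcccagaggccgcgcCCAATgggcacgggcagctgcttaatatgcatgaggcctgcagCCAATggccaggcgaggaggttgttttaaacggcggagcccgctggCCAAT
Hmgn1 (chr16:96127726-96127975, minus strand): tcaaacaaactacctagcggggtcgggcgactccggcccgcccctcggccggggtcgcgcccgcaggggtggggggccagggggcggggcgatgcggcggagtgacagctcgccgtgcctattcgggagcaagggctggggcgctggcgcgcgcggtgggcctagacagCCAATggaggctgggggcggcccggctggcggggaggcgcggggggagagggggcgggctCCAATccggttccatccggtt
Hmgn5 (chrX:109013381-109013630, minus strand): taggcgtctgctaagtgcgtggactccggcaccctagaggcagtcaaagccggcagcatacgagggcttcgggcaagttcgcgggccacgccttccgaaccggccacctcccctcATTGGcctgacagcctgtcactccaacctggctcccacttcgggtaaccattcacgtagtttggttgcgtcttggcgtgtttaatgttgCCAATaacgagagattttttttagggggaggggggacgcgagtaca
The Hmgb2 window holds 4 CCAAT boxes, and 0.84% of all 32851 promoter windows of this length hold at least that many. Hmgb1 and Hmgb3 hold 3 each, a number reached in 2.79% of windows, and Hmgn1 and Hmgn5 hold 2 each, reached in 10.1%. A second annotated start of Hmgb1 holds none. The windows of Hmga2, Hmgn2 and both annotated starts of Hmga1, which are not printed, hold none either. The TATA box TATAAA (in 12.4% of all windows) and an E2F-like site TTTNNCGC (in 4.28%) were also searched. No window of the 8 genes holds either of them. The GC box GGGCGG, found in 32.7% of windows, occurs 4 times before Hmgn1, once before Hmgb2 and Hmgb3 and not in the windows of Hmgn5 or the printed Hmgb1 start. The overlap of motifs was not scored. The A+T share is 24.0% for Hmgn1, 36.4% for Hmgb1, 39.6% for Hmgb2, 41.2% for Hmgb3 and 42.0% for Hmgn5, where the median of all windows is 47.6%. Such matches describe letters and are not binding sites.

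Before the family, the libraries themselves were checked. Deposited counts summed to between 147486754 and 170351145 per library, and 1 count corresponded to between 0.00557 and 0.00672 CPM. CPM is the usual count relative to library size, here corrected by the trimmed mean of M-values (TMM). Satb1 stood at 351, 349.6 and 319.8 CPM in controls 1 to 3, against 82.9, 166 and 61.2 CPM in knockdown libraries 1 to 3 (log2 fold change -1.72 ± 0.26, SE; adjusted p = 0.00106 by the edgeR quasi-likelihood test). Knockdown library 2 thus kept the most Satb1. All 10 dopamine neuron markers were detected, with a summed level of 17973 to 20672 CPM in controls against 11442 to 14459.8 CPM in the knockdown, and 7 of them were lower. Oligodendrocyte markers summed to 403 to 472 CPM in controls against 636 to 719 CPM in the knockdown, and 8 of 10 were higher. By the same test, at an adjusted p under 0.05, 12.6% of all tested genes were lower and 8.48% higher. In bulk RNA, fewer cells of a type and less RNA per cell cannot be told apart.

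In control neurons the HMG genes spanned a wide range of levels. On the scale of CPM per kilobase of exon, which corrects for exon length, Hmgn2 had the highest level, 85.1 ± 7.52 (SD, n = 3). This scale does not correct for reads shared with near-identical copies, described below. The places of Hmgn2, Hmga1 and Hmgb1 in the order are therefore uncertain. Hmgn3 (52.8 ± 7.03) and Hmga1 (50.0 ± 0.335) followed and overlapped between libraries, and the lowest Hmgn3 value (44.9) was also under the highest of Hmgn1 (45.0). Hmgn1 (41.7 ± 4.02) and Hmgb1 (40.2 ± 0.473) came next and also overlapped. Below them stood Hmgn5 at 19.4 ± 2.08, Hmgb3 at 7.63 ± 0.421, Hmgb2 at 1.63 ± 0.408 and Hmga2 at 0.669 ± 0.0485 CPM per kb, each apart from the next. In the knockdown the order of the most abundant genes became Hmgn2 (77.0 ± 0.225), Hmga1 (55.5 ± 3.99), Hmgb1 (44.0 ± 5.96), Hmgn3 (39.0 ± 2.71), Hmgn5 (30.2 ± 6.00) and Hmgn1 (27.6 ± 5.11). There Hmgb1 overlapped Hmgn3, Hmgn3 overlapped Hmgn5, which was the higher in library 3 (37.1 against 35.8), and Hmgn5 overlapped Hmgn1.

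**Figure D1:**
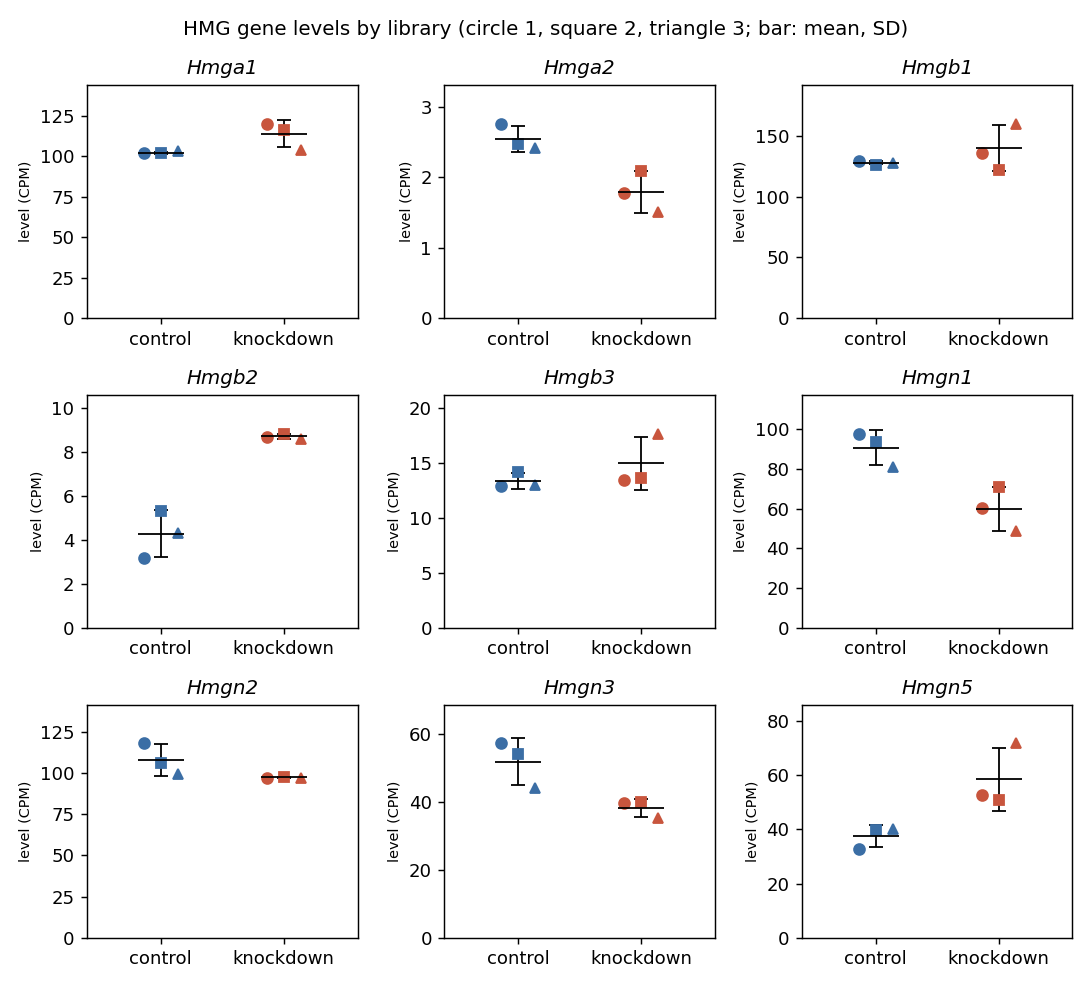
Level of each HMG gene in CPM (linear axis from 0) in the 3 control libraries (blue) and the 3 Satb1 knockdown libraries (red), with the group mean and SD as black bars. Hmgb2 lies between 8.58 and 8.83 CPM in the knockdown, above all controls, and Hmgn1 lies below all controls in each knockdown library.

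Which HMG genes change when Satb1 is reduced was asked by comparing the groups. Of the 9 genes, Hmgb2 and Hmgn5 rose, Hmgn1 and Hmgn3 fell, and Hmga1, Hmga2, Hmgb1, Hmgb3 and Hmgn2 did not pass the test (edgeR quasi-likelihood test, adjusted p under 0.05 over all 16766 genes). Over all tested genes 21.1% were called, 8.48% higher and 12.6% lower, so that 40.2% of the calls were higher, against 74.0% with total-count scaling. The median log2 fold change was 0.13 for the 9 genes and 0.01 for all tested genes. All 3 knockdown libraries lay on one side of all 3 controls for 7 of the 9 genes, 3 above and 4 below, against 38.7% of tested genes in both directions (17.9% above and 20.8% below). Overlap was judged on TMM-scaled CPM only. The TMM factors were 0.925 to 0.955 in controls and 1.04 to 1.09 in the knockdown, so the overlap of genes with small changes depends on the scaling.

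Hmgb2 (chr8:57511843-57515999, plus strand) changed by the largest factor of the 9. It encodes an HMG-box protein that is abundant in dividing and immature cells and low in mature neurons. The controls 1 to 3 held 3.19, 5.33 and 4.33 CPM of it, and the knockdown libraries 1 to 3 held 8.68, 8.83 and 8.58 CPM. The knockdown libraries lay close together and above every control, while the controls varied among themselves. The mean went from 4.28 ± 1.07 to 8.70 ± 0.125 CPM (SD, n = 3 each), a 2.03-fold rise (log2 fold change 1.02 ± 0.21, SE; edgeR quasi-likelihood test, adjusted p = 0.00446). The values rest on 518 to 821 counts per control library and 1357 to 1558 per knockdown library. The call held in all 14 alternative fits, with log2 fold changes from 0.85 to 1.21.

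The other HMGB genes did not pass the test. Hmgb1 (chr5:149046702-149053057), the highest of them per length and the source of the extracellular alarm signal, stood at 129, 126 and 128 CPM in controls against 136, 122 and 159.9 CPM in the knockdown. The groups overlapped, with knockdown library 3 high and library 2 below every control (log2 fold change 0.13 ± 0.11, SE; edgeR adjusted p = 0.436). Hmgb3 (chrX:71555917-71560673), an X-linked gene best known from blood progenitors, had 12.9, 14.2 and 13.0 CPM in controls against 13.5, 13.7 and 17.7 CPM in the knockdown. Here too knockdown library 3 was the high one and the groups overlapped (0.16 ± 0.15; edgeR adjusted p = 0.482).

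Whether the 3 HMGB genes moved apart was measured by ratios within each library, which no scaling of libraries can move. The log2 ratio of Hmgb1 to Hmgb2 was 5.34, 4.57 and 4.89 in controls and 3.97, 3.79 and 4.22 in the knockdown. These groups did not overlap, and the ratio went from 4.93 ± 0.39 to 4.0 ± 0.21 (SD, n = 3 each; difference -0.93, exact two-sided permutation p = 0.1, adjusted over 10 pairs 0.125). The ratio of Hmgb2 to Hmgb3 differed by 0.90 with the same p and no overlap. By contrast Hmgb1 to Hmgb3 was 3.26 ± 0.09 in controls and 3.23 ± 0.10 in the knockdown, with overlap (exact permutation p = 1.0). With 3 against 3 libraries the exact test cannot give a p below 0.1, so none of these ratios can pass a threshold of 0.05.

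The HMGN genes split by direction. Hmgn1 (chr16:96121588-96127725), which encodes a nucleosome-binding protein that loosens compact chromatin, stood at 97.7, 93.4 and 80.9 CPM in controls against 60.3, 70.9 and 48.7 CPM in the knockdown. Each knockdown library was below each control, library 2 the least. With means of 90.7 ± 8.73 and 59.9 ± 11.1 CPM (SD, n = 3 each) it was 1.51-fold lower (log2 fold change -0.60 ± 0.13, SE; edgeR adjusted p = 0.00803). This call held in all 14 alternative fits, from -0.73 to -0.43.

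Hmgn3 (chr9:83109942-83147358), a family member with high levels in brain and endocrine cells, was lower as well. It had 57.3, 54.2 and 44.1 CPM in controls against 39.7, 39.9 and 35.2 CPM in the knockdown, without overlap. The log2 fold change was -0.44 ± 0.12 (SE; edgeR adjusted p = 0.0209), from a mean of 51.9 ± 6.91 to 38.3 ± 2.66 CPM (SD, n = 3 each). The call was lost with total-count scaling (-0.27, edgeR adjusted p = 0.14) and on leaving out control library 1 (edgeR adjusted p = 0.0865), control library 2 (0.0844), knockdown library 1 (0.0604) or knockdown library 3 (0.0657). Exons of Hmgn3 overlap the genes Gm2065 and Gm29054 on the other strand, and without strand their reads cannot be told apart.

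Hmgn5 (chrX:109004537-109013380) went the other way. This X-linked gene encodes the longest HMGN protein, which counters linker histone binding and decompacts chromatin. Its level was 32.9, 39.7 and 40.1 CPM in controls against 52.8, 50.8 and 71.8 CPM in the knockdown. Every knockdown library exceeded every control, library 3 by the most. The mean rose from 37.6 ± 4.02 to 58.5 ± 11.6 CPM (SD, n = 3 each), 1.56-fold (log2 fold change 0.64 ± 0.14, SE; edgeR adjusted p = 0.00761), and the call held in all 14 alternative fits, from 0.48 to 0.81.

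Hmgn2 (chr4:133964739-133967991), the highest HMG gene per length, had 118, 106 and 99.2 CPM in controls against 97.2, 97.7 and 97.2 CPM in the knockdown. The knockdown libraries were nearly equal and just under the lowest control. Its log2 fold change of -0.14 ± 0.10 (SE) did not pass (edgeR adjusted p = 0.32), and with total-count scaling it was 0.02.

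Within the HMGN family the ratio of Hmgn1 to Hmgn5 showed the widest separation. Its log2 value was 1.57, 1.24 and 1.01 in controls and 0.19, 0.48 and -0.56 in the knockdown, with knockdown library 3 the lowest. The groups did not overlap, and the difference was -1.23 (exact permutation p = 0.1, adjusted 0.125). Hmgn3 to Hmgn5 differed by -1.06, Hmgn2 to Hmgn5 by -0.77, Hmgn1 to Hmgn2 by -0.47 and Hmgn2 to Hmgn3 by 0.29, all without overlap and with the same p. The ratio between the HMGN genes that fell, Hmgn1 to Hmgn3, was 0.81 ± 0.06 in controls and 0.63 ± 0.18 in the knockdown and overlapped (difference -0.18, exact permutation p = 0.3). Pairs of a family share genes, so their ratios are not independent of each other.

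The HMGA genes did not pass the test, and 0 of the 2 had an unadjusted p under 0.05 or a call by DESeq2 or limma-voom. Hmga1 (chr17:27556574-27563672), which encodes the AT-hook protein of proliferating cells, had 102, 102 and 103 CPM in controls against 120.1, 116 and 104 CPM in the knockdown. Its knockdown libraries were above the controls, library 3 barely so, and the log2 fold change was 0.15 ± 0.09 (SE; edgeR adjusted p = 0.281). Total-count scaling raised this to 0.32 and to a call (edgeR adjusted p = 0.029). Exons of Hmga1 overlap AI413582 on the other strand, a gene with 54.5 ± 6.13 CPM in controls against 49.0 ± 6.27 CPM in the knockdown (SD, n = 3 each).

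Hmga2 (chr10:120361268-120476469), an embryonic gene held down by the microRNA let-7 in adult tissue, had low counts. It had 2.76, 2.47 and 2.42 CPM in controls against 1.77, 2.09 and 1.5 CPM in the knockdown, from 239 to 449 counts per library. No library overlapped, yet the log2 fold change of -0.51 ± 0.29 (SE) did not pass (edgeR adjusted p = 0.233). The log2 ratio of Hmga1 to Hmga2 went from 5.33 ± 0.11 to 6.00 ± 0.18 (SD, n = 3 each) without overlap, a difference of 0.67 (exact permutation p = 0.1, adjusted 0.125).

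**Figure D2:**
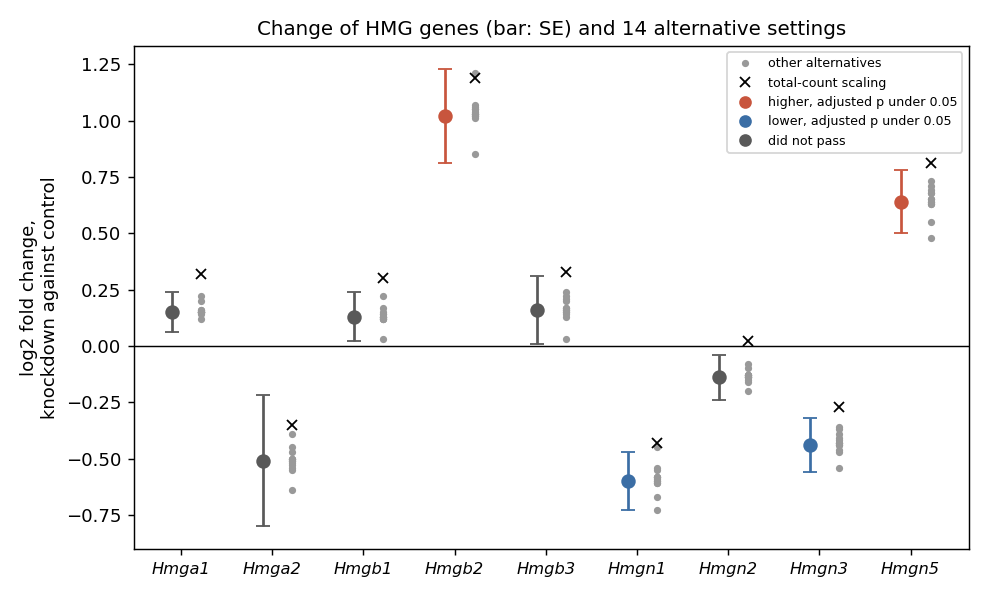
Log2 fold change of each HMG gene, knockdown against control, with its SE (large points, coloured by call) and the values under 14 other settings (small points, crosses for total-count scaling). Hmgb2 and Hmgn5 stay above 0 and Hmgn1 and Hmgn3 below 0 in every setting, and only Hmgn2 changes sign, to 0.02 with total-count scaling.

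The make-up of the HMG transcripts as a pool is described here without a test. The summed level of the 9 genes was 313, 303 and 282 CPM per kb in controls and 285, 284 and 287 CPM per kb in the knockdown, and the groups overlapped. HMGN genes made up 66.5% ± 1.93 of that sum in controls and 60.9% ± 1.25 in the knockdown (SD, n = 3 each). HMGA genes went from 17.0% ± 1.03 to 19.6% ± 1.51 and HMGB genes from 16.6% ± 0.911 to 19.5% ± 2.39. The HMGN share was lower in each knockdown library (60.4%, 62.3% and 59.9%) than in any control (68.2%, 66.8% and 64.4%), whereas the HMGA and HMGB shares overlapped or met between groups. Within it Hmgn1 went from 13.9% ± 0.616 to 9.67% ± 1.85 and Hmgn3 from 17.6% ± 1.45 to 13.6% ± 1.02, while Hmgn5 went from 6.53% ± 0.989 to 10.6% ± 2.03. Hmgb2 stayed a small part, at 0.547% ± 0.145 and 1.16% ± 0.024. The shares depend on the length scale. By share of counts, HMGN genes made up 53.4% ± 1.92 in controls and 47.7% ± 1.69 in the knockdown. On that scale HMGB genes made up 27.1% ± 1.05 and 30.6% ± 3.27, and HMGA genes 19.5% ± 0.866 and 21.7% ± 1.95 (SD, n = 3 each). Shares were not tested, since they follow from the same levels.

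**Figure D3:**
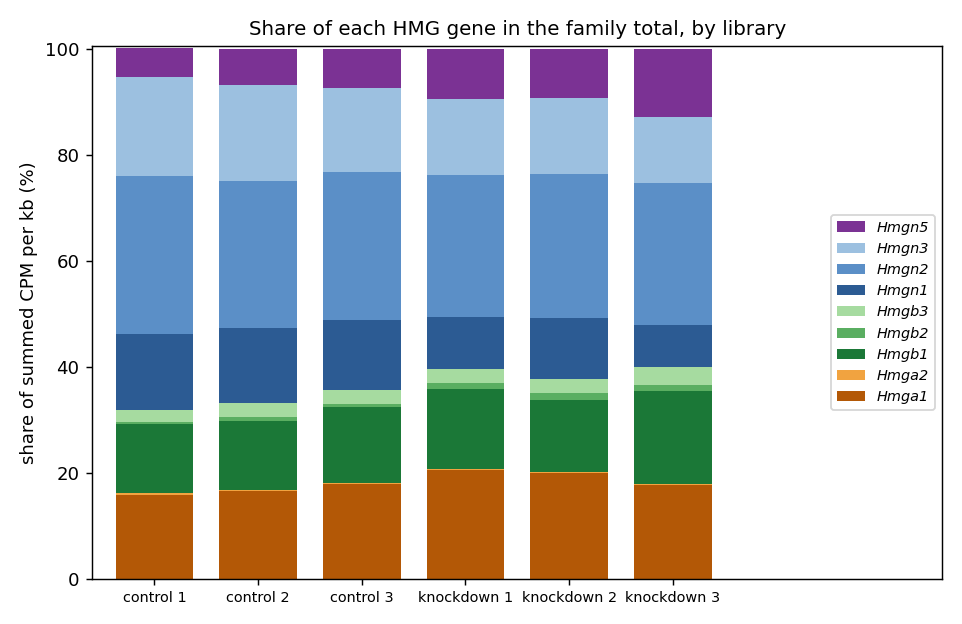
Share of each HMG gene in the summed CPM per kilobase of the 9 genes, in percent, as stacked bars for each of the 6 libraries. The 4 HMGN genes (blue and purple) fill 64.4% to 68.2% of the control bars and 59.9% to 62.3% of the knockdown bars, and Hmgn5 (purple) is widest in knockdown library 3.

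Several HMG genes have near-identical copies elsewhere in the genome, which limits what their counts mean. Other annotated genes with at least 95% identity over at least 100 bases numbered 45 for Hmgb1, covering 46.3% of its transcript, and 12 for Hmgn2, covering 92.3%. For Hmga1 it was 1 gene, Hmga1b, covering 76.9%. For the 4 genes that passed the test it was 24.1% for Hmgb2 (5 copies), 13.4% for Hmgn1 (4 copies), 26.2% for Hmgn5 (1 copy) and 25.9% for Hmgn3, where the 1 match was the overlapping Gm29054. It was 34.6% for Hmgb3 (1 copy) and 3.7% for Hmga2, where the 1 match was 1700006J14Rik, which overlaps it on the other strand. Under those symbols none of these copies had a row of its own. How reads with several alignments were counted is not given in the sources used here, so the levels of Hmgb1, Hmgn2 and Hmga1 are the most uncertain. Among related rows outside the 9, Hmgb4, a testis gene, had at most 27 counts in a library and Hmgb1-rs17 from 97 to 163. Hmga2-ps1, named as a pseudogene of Hmga2, had 69, 85 and 1 counts in controls and 71, 86 and 13 in the knockdown, so it varied between libraries of both groups while Hmga2 itself had 239 to 449.

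The 9 genes differed in which knockdown library stood out. On the log2 scale against the control mean, Hmgn1 was at -0.58, -0.35 and -0.89 in knockdown libraries 1 to 3, Hmgn5 at 0.50, 0.44 and 0.94 and Hmga2 at -0.52, -0.28 and -0.76, each least in library 2, which kept the most Satb1. Hmgb2 did not share that order, at 1.05, 1.07 and 1.03, nor did Hmga1 at 0.23, 0.18 and 0.03 or Hmgb3 at 0.01, 0.03 and 0.41, and Hmgn2 was at -0.14 in all 3. By size of deviation, library 2 was the least changed for 6 of the 9 genes, some by a small margin, and for 46.6% of all tested genes. Median values of marker lists in the same libraries were -0.63, -0.37 and -0.58 for dopamine neurons, 0.74, 0.55 and 0.55 for oligodendrocytes, 0.63, 0.44 and 0.69 for astrocytes and 0.85, 0.25 and 1.71 for microglia. Astrocyte markers summed to 245 to 287 CPM in controls against 207 to 225 CPM in the knockdown, with 1 of 8 higher and 1 lower. Slc1a2, the marker that was lower, made up most of that sum, and without it the other 7 summed to 26.6 ± 3.47 CPM in controls and to 40.1 ± 7.03 CPM in the knockdown (SD, n = 3 each), each with a higher knockdown mean. Microglia markers summed to 26.2 to 29.0 and 24.9 to 36.1 CPM, with 1 of 10 higher and 1 lower. Here P2ry12 was the lower marker and most of the control sum, and the other 9 summed to 7.99, 8.21 and 9.08 CPM in controls and to 15.3, 9.63 and 22.6 CPM in the knockdown, each with a higher knockdown mean. Of 6 oligodendrocyte precursor markers 1 was higher, as was 1 of 5 ependymal and 1 of 6 other neuronal markers. Over all tested genes 8.48% were called higher and 12.6% lower. The part of these cell types in the HMG values was not tested.

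**Figure D4:**
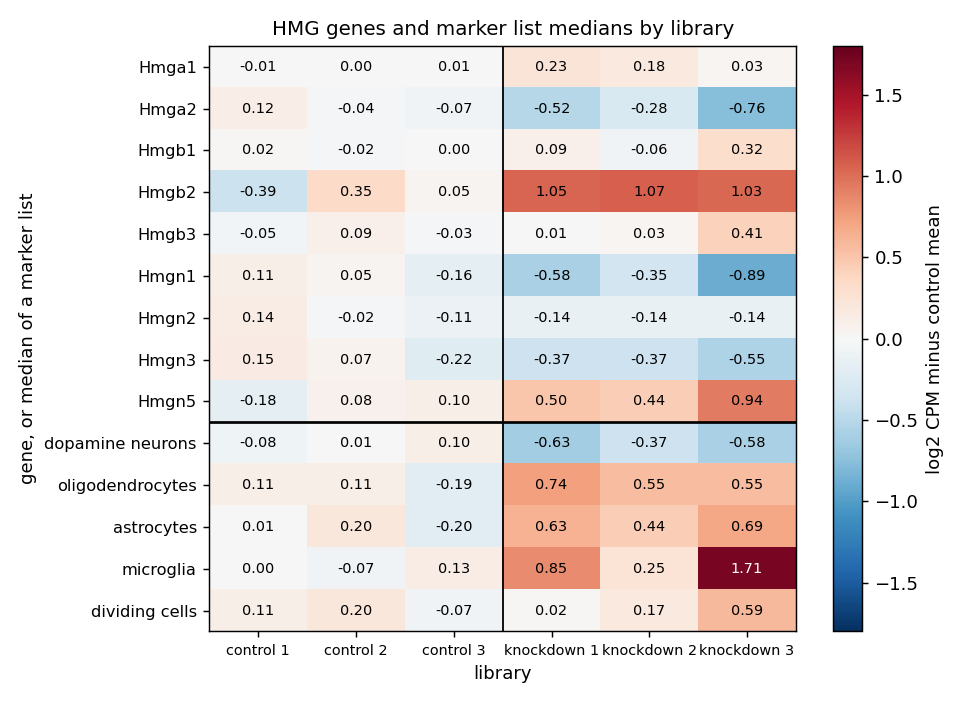
Log2 CPM minus the control mean for each HMG gene (upper rows) and the median of 5 marker lists (lower rows) in the 6 libraries, coloured from blue (lower) to red (higher). Hmgb2 is near 1.05 in each knockdown library, while Hmgn1, Hmga2 and Hmgn5 are least changed in knockdown library 2.

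Markers of dividing cells were examined because Hmgb2 is high in such cells. By edgeR 0 of 10 passed the test, 1 had an unadjusted p under 0.05, DESeq2 called 1 higher and limma-voom 0. Of the 10, 6 of them were below 1 CPM on average in controls, and their median log2 fold change was 0.04. Their sum was 28.2, 23.5 and 23.2 CPM in controls against 24.1, 28.0 and 32.8 CPM in the knockdown, which overlapped. Ccna2 made up most of that sum. Without it the other 9 summed to 8.13, 8.53 and 7.11 CPM in controls and to 7.58, 8.01 and 11.8 CPM in the knockdown. Of these 9, 4 had a higher knockdown mean. Mki67 stood at 0.522 ± 0.143 and 0.465 ± 0.411 CPM (SD, n = 3 each). Top2a was at 0.00615, 0 and 0.141 CPM in controls, with 0 counts in control library 2. In the knockdown it was at 0.267, 0.163 and 1.28 CPM, above every control (log2 fold change 3.52 ± 1.34, SE; edgeR adjusted p = 0.0821). Aurkb also had 0 counts in control library 2 and Ccnb2 in control library 3.

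By a rule that took the nearest profile over the 6 libraries, the gene most like Hmgn5 among 8792 was Cnp, an oligodendrocyte marker, with a root mean square difference of 0.032 on the log2 scale. It was at 76.5, 91.1 and 91.7 CPM in controls against 115, 115 and 159 CPM in the knockdown. Trmt61a (0.048) and Hif1a (0.05) followed. Hmgb2 had no such close match, the nearest being Secisbp2 (0.127), Ido2 (0.143) and Psph (0.151). Wdr8 (0.023), Bcl2l2 (0.026) and Mtf1 (0.032) were nearest to Hmga2, the HMGA gene with the smaller p.

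Genes that share a domain, a complex or a pathway with HMG proteins were examined in lists. Calls here and in the list paragraphs below stand beside the share over all tested genes, 8.48% higher and 12.6% lower. Of 22 other genes with an HMG box, 3 rose and 2 fell, with a median log2 fold change of -0.01. Tcf7l2, a Wnt pathway factor, rose from 20.6 ± 2.26 to 33.4 ± 2.03 CPM (0.70 on the log2 scale), and Tox rose by 0.45. Smarce1, a subunit of the BAF remodelling complex, fell by 0.44 and Wdhd1, a replication factor, fell by 0.82. Tox3, named after its value was seen, rose by 0.32. The call for Smarce1 was lost with total-count scaling. Tox lost its call without control library 1 or 3 or knockdown library 1 or 3, Wdhd1 with total-count scaling and when lacking control library 3 or knockdown library 1 or 2, and Tox3 without any 1 of the controls or knockdown library 1.

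Linker histones compete with HMGN proteins for nucleosomes. Of 7 tested, 2 rose and 0 fell by edgeR (median log2 fold change 0.23), and 0 were lower by DESeq2, by limma-voom or at an unadjusted p under 0.05. Hist1h1c was at 9.26, 11.8 and 11.6 CPM in controls against 150.1, 95.9 and 148 CPM in the knockdown. Hist1h1d was at 2.91 ± 0.157 and 13.8 ± 4.30 CPM (SD, n = 3 each; log2 fold change 2.25). H1f0, the replication-independent linker histone, was at 73.3 ± 8.4 and 75.3 ± 5.22 CPM and did not pass, nor did Hist1h1e at 44.8 ± 1.73 and 48.2 ± 4.81 CPM. Both were named after their values were seen. Histone cluster genes resemble each other, so their counts are uncertain.

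None of the 5 genes of the SET complex, which holds HMGB2, passed by edgeR, and 1 had an unadjusted p under 0.05. It was Set itself, at -0.25 (edgeR adjusted p = 0.0538), and DESeq2 and limma-voom each called 1 gene of this list lower. Trex1, an exonuclease of the complex, was at -0.19 (edgeR adjusted p = 0.427). Of 14 enzymes that modify HMG proteins, 3 fell and 0 rose by edgeR, with 0 higher at an unadjusted p under 0.05 and by the other tools. They were Csnk2a1 (-0.56), a catalytic subunit of casein kinase 2, the kinase Hipk2 (-0.49) and the poly(ADP-ribose) polymerase Parp1 (-0.46). The calls for Hipk2 and Parp1 were lost with total-count scaling and each without 4 single libraries, controls 1 and 3 and knockdown 1 for both, with knockdown 3 for Hipk2 and knockdown 2 for Parp1.

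Receptors and partners of extracellular HMGB1 were mostly below 1 CPM in controls. Of 8 tested, Cd24a rose from 20.7 ± 4.04 to 37.2 ± 4.68 CPM (0.85 on the log2 scale) and 7 did not pass. The median log2 fold change of the 8 was 0.83. The 7 that did not pass each had a higher knockdown mean, but from control means below 1 CPM. Tlr4 was at 0.0779 and 0.0848 CPM on average in controls and knockdown, Tlr2 at 0.325 and 0.576 CPM and Ager, the receptor RAGE, at 0.0041 and 0.0458 CPM. Of 6 tested genes around LIN28 and let-7, Igf2bp3 fell by 0.61 on the log2 scale, and Lin28b, which blocks let-7 maturation, was at 18.1 ± 2.16 and 24.0 ± 6.16 CPM and did not pass (edgeR adjusted p = 0.111). Its paralog Lin28a was at 0.669 and 0.0366 CPM on average and did not pass by edgeR. DESeq2 called 1 gene of this list higher and 2 lower. Lin28a, Lin28b, the receptors and Cdkn2b below were named after their values were seen.

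Of 13 tested nuclear genes linked to senescence, 1 rose and 1 fell, with a median log2 fold change of 0.01. Cdkn1a, the gene for p21, was at 33.3, 31.1 and 38.1 CPM in controls against 368, 264 and 444 CPM in the knockdown. Rb1 was at -0.34, a call lost without any 1 of the 6 libraries, with total-count scaling and with the filter on a mean of 1 CPM (edgeR adjusted p = 0.0505). Lmnb1, the lamin whose loss accompanies senescence in culture, was at 2.65 ± 0.394 and 2.78 ± 0.191 CPM (SD, n = 3 each; log2 fold change 0.07 ± 0.26, SE; edgeR adjusted p = 0.887) and was named after its value was seen. Cdkn2a was at 0 counts in all libraries and Cdkn2b at 0.00421 and 0.0062 CPM.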

How the data were processed

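The authors deposited 1 table of raw gene counts (whole numbers) with 1 column per library. Per the submitters' processing notes, TopHat2 2.0.8 and mm10 were used. How genes were counted, by strand or not, and how reads with several alignments were treated is not given in the sources used here. Groups and replicate numbers come from the sample titles. Counts were fitted with the quasi-likelihood test of edgeR 4.0.16 (R 4.3.3), with TMM scaling, filterByExpr (minimum count 10, minimum total 15) and Benjamini-Hochberg adjustment over 16766 genes at 0.05. The script was tested on simulated data. Alternatives were other scalings and filters, a robust dispersion, DESeq2 1.42.0, limma-voom (limma 3.58.1), a replicate block and leaving out each library. Exon lengths, overlaps and copies came from GENCODE M21 and loci and promoters from RefSeq, both GRCm38.

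All 9 genes were described. From each of 8 lists of related genes the text names up to 4 called members by p, or 2 uncalled ones where 0 were called. The list of AT-hook proteins is not reported here. Nearest profiles were sought among genes with at least 10 CPM. Members and lists were chosen with earlier results of these data known. Replicate libraries differed by a chi-square per gene of 58.5 to 156, so none was a copy. Marker sums without their most abundant gene were added after the data were seen.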

Additional observations from a re-analysis of the deposited data

How the results depend on the processing

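Satb1 kept its direction and call in all 14 alternatives, as did Hmgb2, Hmgn1 and Hmgn5. With total-count scaling the median over the tested genes shifted from 0.01 to 0.18 (log2), the genes called were 2770 higher and 972 lower against 1421 and 2115, 1 HMG gene was lower against 2, and Hmgn2 reversed from -0.14 to 0.02. Leaving out 1 library gave 804 to 1356 higher and 1132 to 2054 lower genes, with the fewest without control 2 (910 and 1322) or knockdown 1 (804 and 1132), and 1 to 2 lower HMG genes, and the HMG gene lost was Hmgn3. The 8 lists of HMG partners held 22, 7, 11, 5, 14, 8, 6 and 13 tested genes. Of these genes 7 rose and 8 fell, where 8.48% and 12.6% of all tested genes did. They were 16 and 3 with total-count scaling, 11 rose under a 1 CPM mean filter and with DESeq2, and leaving out 1 library gave 5 to 9 higher and 4 to 7 lower. By share of counts instead of per length the change was -0.137 points for Hmga2, 0.835 for Hmgb2 and -2.42 for Hmgn3. The cause was not tested. Same-numbered libraries were only weakly related (correlations of deviations 0.056, 0.013 and 0.108), against -0.101 to 0.048 for libraries of different number. The numbers were not taken as pairs, and the labels do not say whether they are. With the replicate block 1924 genes were higher and 2789 lower, and 12 list members were higher. The block changed no call of an HMG gene. Each ratio between HMG genes of a family kept its direction without any 1 library where its difference exceeded the spread.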
